A study of Caenorhabditis elegans with 6 samples.

Results

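The 10 genes described here encode enzymes of glycolysis and the lactate dehydrogenase that follows it in Caenorhabditis elegans: gpi-1, aldo-1, aldo-2, tpi-1, gpd-2, gpd-3, pgk-1, enol-1, pyk-1 and ldh-1. They were picked by name from the 46748 genes of the deposited count table, and all 10 were found and passed the filter on low counts that left 13374 genes. RNA was sequenced from whole hermaphrodites of the laboratory strain N2, labelled as 2 days old and counted, per the title of the series, from the L4 larva. There were 3 libraries from worms given L4440, the empty vector of RNAi by feeding, and 3 from worms given RNAi against T25B9.1, the worm counterpart of the mitochondrial enzyme glycine C-acetyltransferase. Both groups share strain, sex and age, and the labels name no mutation or transgene. Whether the libraries of a group came from separate cultures is not stated in the labels. A p-value here therefore sets a difference against the spread of these 6 samples alone, and that spread may be technical. Because whole worms were used, a lower level in a tissue and a smaller share of that tissue cannot be told apart.

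Glycolysis breaks glucose down to pyruvate in the cytosol and yields ATP and NADH. In its upper part the sugar phosphate is rearranged and split into the triose phosphates, and in its lower part these are oxidised and their phosphate is passed to ADP. The triose phosphates are also a chemical source of methylglyoxal, a reactive compound that can likewise form when threonine is broken down, the route in which T25B9.1 acts. In the nematode the aldolase, GAPDH and pyruvate kinase steps are each served by more than 1 gene. The pair gpd-2 and gpd-3 is known for the GAPDH of body wall muscle, and gpd-1 and gpd-4 for a GAPDH found in embryos and more widely.

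None of the 10 transcripts rose or fell past the threshold with T25B9.1 RNAi, and 0% of the 13374 genes tested did. The shares of the aldolase and GAPDH paralogues differed between the groups by less than the spread between libraries. Levels differed far more between the enzymes than between the groups: per kilobase of exon, aldo-2 stood at 694 ± 38.3 CPM (counts scaled by library size; SD, n = 3) with L4440 and aldo-1 at 28.7 ± 4.11. The fitted log2 fold changes of the 10 genes ran from -0.16 for pgk-1 to 0.05 for aldo-1. For scale, the log2 fold change of T25B9.1 itself was -1.84 (SE 0.184), from 5.99, 4.99 and 6.39 CPM in the L4440 libraries to 1.35, 1.71 and 1.76 CPM in the RNAi libraries, with no overlap (unadjusted p = 3.92e-06 and adjusted p = 0.0525 in edgeR's quasi-likelihood test). T25B9.1 RNAi replicate 1 departed most from the other 5 libraries, at 41.9 on the first principal component against -27.5 to 4.59. Log2 fold changes of the 10 genes that moved by more than 1.5 times without it are given both ways.

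The 10 genes together took 0.315% ± 0.0152 of all counts with L4440 and 0.301% ± 0.0142 with RNAi (SD, n = 3). Depth was 26125982 to 40726259 counts per library, and single members had between 793 counts, for aldo-1 in RNAi replicate 2, and 34438 counts, for aldo-2 in RNAi replicate 3. Counting error alone is then at most 3.55% of a value. This is less than the spread between libraries, whose coefficient of variation over all 6 ran from 5.50% for ldh-1 to 19.1% for aldo-1.

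The first gene of the set, gpi-1, encodes glucose-6-phosphate isomerase, which turns glucose 6-phosphate into fructose 6-phosphate. It lies on chromosome I from 13576148 to 13581611 on the plus strand (build WBcel235, as are all positions here). It stood at 215, 207 and 192 CPM in L4440 replicates 1 to 3 and at 195, 207 and 183 CPM in the RNAi replicates. The groups overlapped, with 1 RNAi library below every control. The log2 fold change was -0.07 (95% interval -0.24 to 0.10, edgeR adjusted p = 0.795), and it ran from -0.14 without RNAi replicate 2 to -0.03 without RNAi replicate 3.

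Aldolase splits fructose 1,6-bisphosphate into the triose phosphates, and its genes aldo-1 and aldo-2 lie on the minus strand of chromosome III, far apart. The gene aldo-2 (5874673 to 5876625) had the highest level per length of all 10 members. It was at 1003, 923 and 905 CPM with L4440 and at 773, 942 and 830 CPM with RNAi. RNAi replicates 1 and 3 were below all controls, while RNAi replicate 2 lay among them. The log2 fold change was -0.15 (95% interval -0.37 to 0.06, edgeR adjusted p = 0.717). It was -0.09 without RNAi replicate 1 and -0.25 without RNAi replicate 2. Of its 1359 exonic bases 34 are shared with F01F1.3 on the opposite strand, which had at most 221 counts in any library.

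The gene aldo-1 (13563346 to 13564937) had the lowest level per length of the 10 and the widest spread. It was at 34.1, 32.1 and 41.9 CPM with L4440 and at 47.2, 27.7 and 37.0 CPM with RNAi. The RNAi libraries held both its highest and its lowest value, around a mean of 37.3 ± 9.76 CPM against 36 ± 5.15 CPM for the controls (SD, n = 3). Its log2 fold change was 0.05 (95% interval -0.36 to 0.46, edgeR adjusted p = 0.945), the widest interval of the set, and it was -0.15 without RNAi replicate 1 and -0.02 without L4440 replicate 2.

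Triosephosphate isomerase, encoded by tpi-1, converts the triose phosphates into each other. The gene lies on chromosome II from 12036835 to 12039139 on the minus strand. It was at 233, 200 and 191 CPM with L4440 and at 186, 207 and 174 CPM with RNAi. L4440 replicate 1 was the highest library, and RNAi replicate 2 was the 1 RNAi library above any control. For tpi-1 the log2 fold change was -0.14 (95% interval -0.36 to 0.08, edgeR adjusted p = 0.726), and it was -0.05 without L4440 replicate 1.

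**Figure D1:**
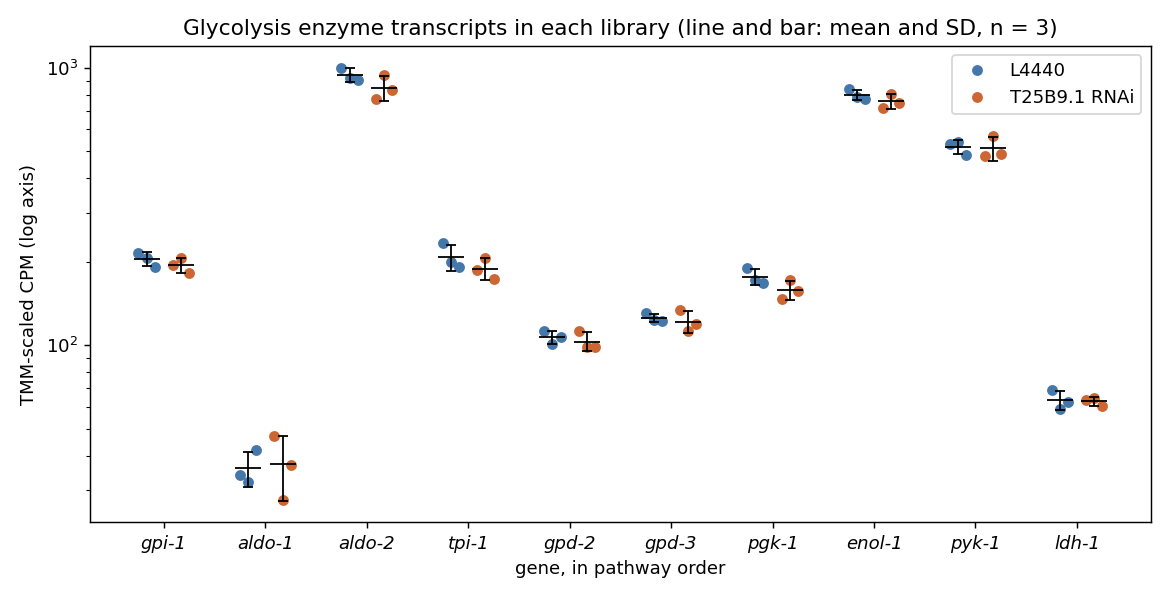
TMM-scaled CPM of the 10 glycolysis enzyme genes on a log axis, with 1 point per library, blue for L4440 and orange for T25B9.1 RNAi, and a line and bar for the mean and SD of 3 libraries. The groups overlap for every gene, and the spread is widest for aldo-1, whose RNAi libraries run from 27.7 to 47.2 CPM.

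GAPDH, the enzyme that oxidises glyceraldehyde 3-phosphate, opens the lower part of the pathway. Its genes gpd-2 (3113443 to 3114689) and gpd-3 (3112091 to 3113341) follow each other on the minus strand of chromosome X with 101 bases between them. They are known as part of an operon, in which 1 precursor RNA is cut into separate messages. The level of gpd-2 was 112, 101 and 107 CPM in the controls and 113, 98.8 and 98.2 CPM after RNAi. The level of gpd-3 was 131, 123 and 123 CPM in the controls and 134, 113 and 119 CPM after RNAi. RNAi replicate 1 held the highest value of both genes, and RNAi replicates 2 and 3 their 2 lowest values.

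The fitted log2 fold change was -0.05 for gpd-2 (95% interval -0.22 to 0.12, edgeR adjusted p = 0.855) and -0.04 for gpd-3 (95% interval -0.22 to 0.13, edgeR adjusted p = 0.884). Both were -0.12 without RNAi replicate 1. The coding sequences of gpd-2 and gpd-3 are nearly identical, as are those of gpd-1 and gpd-4, and how reads that match more than 1 gene were counted is not given in the sources used here, so the split within each pair is uncertain. The gene before gpd-2 in the same direction, mai-1, which encodes a relative of the mitochondrial ATPase inhibitor, was much lower per length, at 3.57 ± 0.616 CPM per kilobase of exon with L4440 against 92.8 ± 5.07 for gpd-2 and 109 ± 3.76 for gpd-3 (SD, n = 3). Its log2 fold change was 0.21 (SE 0.218, edgeR adjusted p = 0.790), and 0.04 without RNAi replicate 1. It was chosen after its values were seen, and 22 of its bases are annotated as exon of gpd-2 as well.

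Phosphoglycerate kinase, encoded by pgk-1, makes the first ATP of the lower part. The gene lies on chromosome I from 3867541 to 3869109 on the plus strand. It was at 190, 172 and 168 CPM with L4440 and at 147, 172 and 157 CPM with RNAi. RNAi replicates 1 and 3 were below all controls, and RNAi replicate 2, at 171.6 CPM, lay between L4440 replicates 2 and 3. Its log2 fold change of -0.16 (SE 0.0806, 95% interval -0.34 to 0.02) was the furthest from 0 of the 10, with an unadjusted p = 0.0809 and an adjusted p = 0.717 in edgeR's quasi-likelihood test. It ran from -0.24 to -0.11 with 1 library left out, and was the 1 member lower in every RNAi library than in the L4440 library of the preceding number (13 and 14, 17 and 18, 21 and 22).

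Enolase, encoded by enol-1, makes phosphoenolpyruvate, and its transcript was the second most abundant of the set per length. The gene lies on chromosome II from 8930997 to 8933799 on the plus strand. It was at 840, 789 and 772 CPM with L4440 and at 717, 808 and 746 CPM with RNAi. As for aldo-2 and pgk-1, RNAi replicates 1 and 3 were below all controls and RNAi replicate 2 was not. The fitted log2 fold change was -0.08 (95% interval -0.26 to 0.10, edgeR adjusted p = 0.789). It was -0.04 without RNAi replicate 1 or without L4440 replicate 1, and -0.15 without RNAi replicate 2.

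Pyruvate kinase, encoded by pyk-1, makes pyruvate and ATP from phosphoenolpyruvate. The gene lies on chromosome I from 9168432 to 9177488 on the plus strand, with 6 annotated transcripts of 1892 to 2742 bases within 3940 exonic bases. It was at 534, 542 and 483 CPM with L4440 and at 479, 570 and 489 CPM with RNAi. RNAi replicate 2 was the highest of the 6 libraries and RNAi replicate 1 the lowest. The fitted log2 fold change was -0.02 (95% interval -0.23 to 0.19, edgeR adjusted p = 0.961), and 0.02 without RNAi replicate 1.

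Lactate dehydrogenase, encoded by ldh-1, turns pyruvate into lactate and restores NAD+ for GAPDH. The gene lies on chromosome II from 11724204 to 11726533 on the plus strand. It was at 68.8, 59.0 and 62.4 CPM with L4440 and at 63.3, 64.6 and 60.4 CPM with RNAi. All 3 RNAi libraries lay within the range of the controls. For ldh-1 the log2 fold change was -0.02 (95% interval -0.18 to 0.15, edgeR adjusted p = 0.963), and it was -0.024 without RNAi replicate 1 and 0.05 without L4440 replicate 1.

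Across the set 0 of 10 genes were called higher and 0 lower by edgeR at an adjusted p under 0.05, where 0% of the 13374 genes tested were called. An unadjusted p under 0.05 was found for 0 of 10, against 6.18% of all genes (2.17% for lower genes alone). DESeq2 also called 0 of 10, against 0.0618% of the 22665 genes with a count. It leaves some genes of low count without an adjusted p, so the share among genes that it could call is higher. Groups without overlap were found for 0 of 10, against 10.9% of all genes (5.32% with RNAi lower and 5.53% with RNAi higher). Log2 fold changes were below 0 for 9 of the 10, with aldo-1 the exception, against 49.4% of all genes, and their median was -0.06 against 0.00 over all genes. Without RNAi replicate 1 the median was -0.10 and 9 of 10 were again below 0, with pyk-1 in place of aldo-1 as the exception. Scaling by library totals or upper quartile factors left 7 of 10 below 0, with medians of -0.04 and -0.03. Under each of these scalings 42.7% of all genes were below 0, with a median of 0.03. A second deposited table left 3 of 10, against 27.9% and 28.2% of all genes there with pseudocounts 1 and 0.1. Without RNAi replicate 2, 2 of the 10 had an unadjusted p under 0.05 and 0 were called, and 1398 of all 13650 genes tested there had such a p. The 95% intervals of the 10 genes together reached from -0.37, for aldo-2, to 0.46, for aldo-1. Changes inside a gene's own interval remain possible with 3 libraries a group. The intervals were not adjusted over all genes and are not limits of detection.

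**Figure D2:**
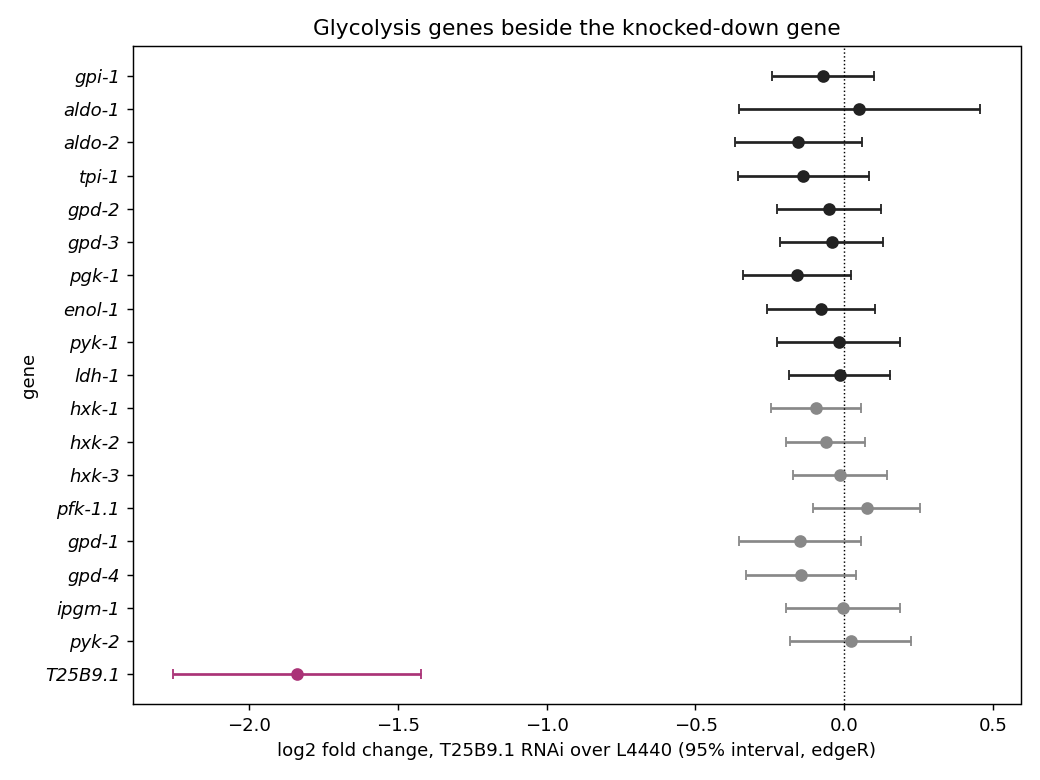
Log2 fold change of T25B9.1 RNAi over L4440 with its 95% interval from edgeR for the 10 members (black), the 8 other glycolysis genes that were tested (grey) and T25B9.1 (purple), in 3 libraries a group. Every interval of a glycolysis gene includes 0, while that of T25B9.1 runs from -2.25 to -1.42.

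Against the mean of the controls on the log2 scale, the median of the 10 genes was 0.07, -0.03 and -0.05 in L4440 replicates 1 to 3 and -0.09, -0.0012 and -0.11 in RNAi replicates 1 to 3. The median of RNAi replicate 2 lay within those of the controls, and the medians of RNAi replicates 1 and 3 lay below them. L4440 replicate 1 held the highest level of 6 of the 10 genes, and all 9 genes with a log2 fold change below 0 were above the control mean in it. Without that library the median log2 fold change was -0.03, and without RNAi replicate 2 it was -0.13.

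**Figure D3:**
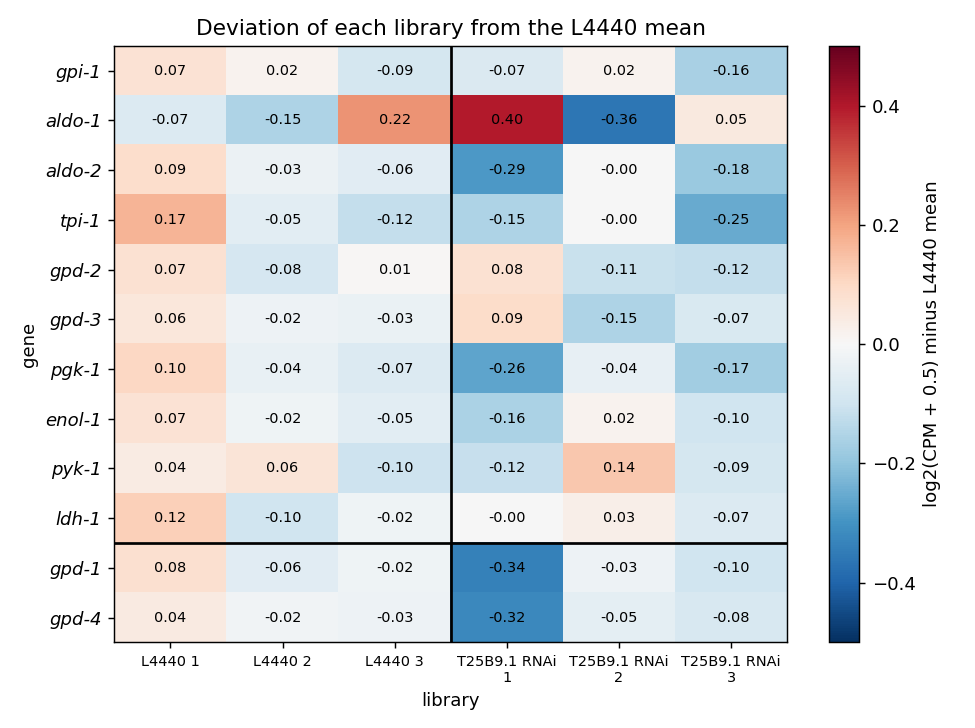
Deviation of log2(CPM + 0.5) from the mean of the L4440 libraries, by gene (rows, the 10 members above the line, gpd-1 and gpd-4 below it) and library (columns). In RNAi replicate 1, aldo-1 stands at 0.40, gpd-2 at 0.08 and gpd-3 at 0.09, while aldo-2 stands at -0.29, pgk-1 at -0.26, gpd-1 at -0.34 and gpd-4 at -0.32.

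Compared per kilobase of exon, the levels with L4440 fell in the order aldo-2 (694 CPM per kilobase), enol-1 (503), tpi-1 (178), pyk-1 (132), pgk-1 (125), gpd-3 (109), gpi-1 (98.4), gpd-2 (92.8), ldh-1 (55.1) and aldo-1 (28.7). Of the neighbours in that order, pyk-1 and pgk-1, and gpi-1 and gpd-2, had ranges that overlapped over the 3 libraries. The order of the means was the same with RNAi, where pgk-1 and gpd-3, gpd-3 and gpi-1, and gpi-1 and gpd-2 overlapped. The place of pyk-1 depends on the length taken: with the longest annotated transcript of each gene, a choice made after the data were seen, it was at 190 CPM per kilobase and above tpi-1. Among the protein-coding genes tested, aldo-2 stood at the 98.7th percentile of level per length with L4440, enol-1 at the 98.3rd, ldh-1 at the 79.5th and aldo-1 at the 65.5th. The other 6 members lay between these. The places of gpd-2 and gpd-3 are uncertain, since how reads that match both genes were counted is not given.

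Within the aldolase pair, aldo-2 made up 96.0% ± 0.681 of the counts per exonic base with L4440 and 95.4% ± 1.56 with RNAi (SD, n = 3). Per library the aldo-1 share was 3.56%, 3.64% and 4.77% with L4440 and 6.21%, 3.09% and 4.62% with RNAi. The RNAi libraries again held both the highest share, in replicate 1, and the lowest, in replicate 2. The level of aldo-2 was accordingly 15.1 to 31.3 times that of aldo-1. The log2 ratio of aldo-2 to aldo-1 differed between groups by -0.18 (RNAi minus L4440), with p = 0.7 in a 2-sided exact permutation test of 3 against 3 libraries, which cannot give a p under 0.1. Without RNAi replicate 1 the difference was 0.07 (exact p = 0.9).

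Muscle transcripts also set RNAi replicate 1 apart. The summed level of 8 body wall muscle genes, such as the myosin heavy chain gene unc-54, was 828 to 1191 CPM in the L4440 libraries and 1629, 809 and 1061 CPM in RNAi replicates 1 to 3, and 7 of the 8 were highest in RNAi replicate 1. The library with the lowest muscle sum, RNAi replicate 2, was also the one with the lowest aldo-1, and L4440 replicate 3 came second from the top in both. The match at the bottom depends on the sum. By the median log2 deviation of the muscle genes from the control mean, L4440 replicate 1 was lowest (-0.21, with aldo-1 at -0.07). RNAi replicate 2 came next (-0.18, with aldo-1 at -0.36). The summed level of 6 pharynx genes was 43.9 to 76.7 CPM with L4440 and 187, 72.1 and 70.2 CPM with RNAi, and that of 7 moulting and hypodermis genes 151 to 226 CPM and 444, 226 and 222 CPM. Of those lists 6 of 6 and 6 of 7 genes were highest in RNAi replicate 1. The 8 oocyte and germ line genes summed to 9572 to 10106 CPM with L4440 and 9750 to 10079 CPM with RNAi, the 6 intestine genes to 23296 to 36942 and 30679 to 36405 CPM. The 6 neuron genes summed to 197 to 215 and 188 to 203 CPM, but most of that sum was snb-1, and the other 5 of the 6 were highest in RNAi replicate 1. The median deviation of the neuron genes from the control mean was 0.72 on the log2 scale in that library and -0.01 to 0.11 in the others. No gene of these lists was at 0, and their part in the aldolase shares was not tested.

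Within the pair gpd-2 and gpd-3 the split varied little. Per library gpd-2 made up 46.4%, 45.0% and 46.7% of the gpd-2 and gpd-3 counts per exonic base with L4440 and 45.8%, 46.8% and 45.3% with RNAi. The means were 46.1% ± 0.890 and 45.9% ± 0.761 (SD, n = 3). Counts per exonic base were higher for gpd-3 in 6 of 6 libraries, by 1.14 to 1.22 times. How reads that match both genes were counted is not given, so this ratio need not be that of the transcripts. The log2 ratio of gpd-2 to gpd-3 differed between groups by -0.01, with p = 1 in the 2-sided exact permutation test.

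The balance between the GAPDH pairs, a comparison added after the data were seen, differed in 1 library. The genes gpd-2 and gpd-3 made up 38.1%, 38.1% and 38.3% of the counts per exonic base of all 4 GAPDH genes with L4440 and 45.2%, 36.5% and 38.2% with RNAi. RNAi replicate 1 was the library apart, and the other 5 lay between 36.5% and 38.3%. The difference in log2 ratio was 0.10 (2-sided exact permutation p = 0.8), and -0.05 without RNAi replicate 1 (exact p = 0.3). That library had the highest gpd-2 and gpd-3 and the lowest gpd-1 and gpd-4 levels, and the body wall muscle, pharynx, moulting and neuron genes given above were mostly highest there too. L4440 replicate 1, with the second lowest body wall muscle sum (828 CPM), had the second highest levels of both gpd-2 and gpd-3. The part of these other transcripts in the GAPDH shares was not tested. Within the second pair gpd-1 held 66.6% to 67.7% of the counts per exonic base in all 6 libraries. The size of these GAPDH shares also depends on how reads that match more than 1 gene were counted.

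**Figure D4:**
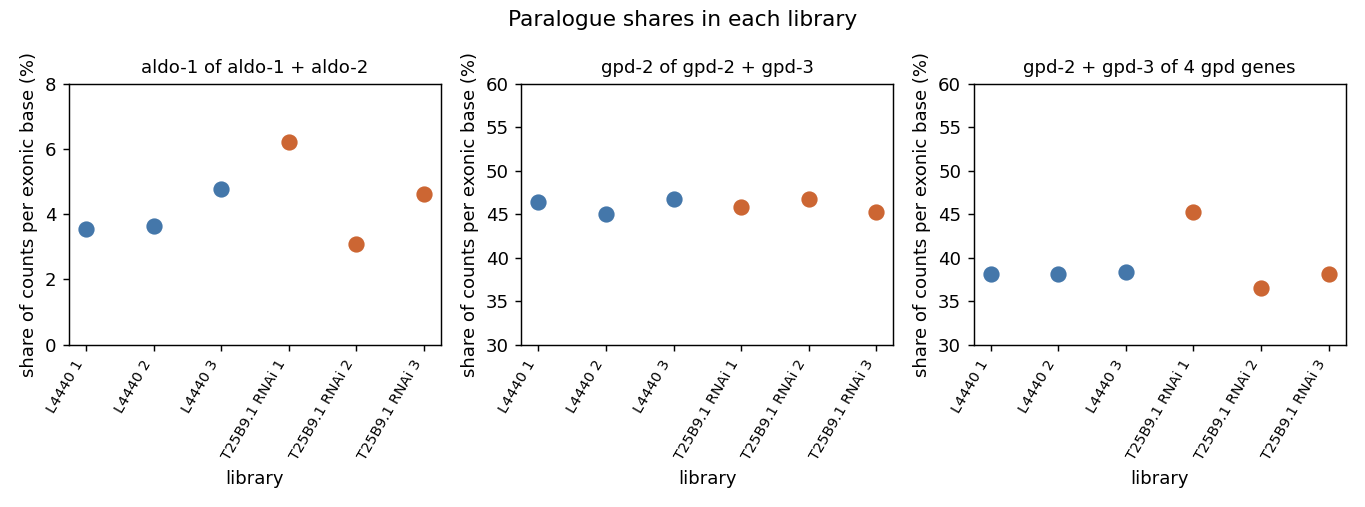
Shares of counts per exonic base in each library for aldo-1 within the aldolase pair (axis 0 to 8%), gpd-2 within the pair gpd-2 and gpd-3, and gpd-2 with gpd-3 among the 4 GAPDH genes (axes 30 to 60%), blue for L4440 and orange for T25B9.1 RNAi. The gpd-2 share stays between 45.0% and 46.8%, while T25B9.1 RNAi replicate 1 stands apart at 6.21% for aldo-1 and 45.2% for the pair gpd-2 and gpd-3.

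The glycolysis steps and paralogues outside the set were measured alike. Of 9 such genes 8 were tested. Of these 0 were called, against 0% of all genes, and 0 had an unadjusted p under 0.05 in edgeR, against 6.18%. Log2 fold changes were below 0 for 6 of the 8, against 49.4% of all genes, with a median of -0.04. Library totals left 4 of the 8 below 0, against 42.7% of all genes. The second deposited table (pseudocount 1) left 2, against 27.9%. The groups did not overlap for 3 of the 8 (hxk-1, hxk-2 and gpd-4), each with RNAi lower, against 5.32% of all genes in that direction. Hexokinase, which phosphorylates glucose, is encoded by hxk-1, hxk-2 and hxk-3. The level of hxk-1 was 434 ± 6.32 CPM with L4440 and 406 ± 14 with RNAi (SD, n = 3), with all 3 RNAi libraries below the controls and an edgeR adjusted p = 0.725. The levels of hxk-2 (71.5 ± 1.87 and 68.5 ± 1.28 CPM) and hxk-3 (63.9 ± 2.98 and 63.3 ± 3.43 CPM) were closer, although all 3 RNAi libraries were below the controls for hxk-2 too.

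Phosphofructokinase, the enzyme that commits sugar to glycolysis, was represented by pfk-1.1 at 90.2 ± 5.33 CPM in the controls and 95.1 ± 7.92 CPM after RNAi (SD, n = 3). Its paralogue pfk-1.2 had 1 to 6 counts per library and was not tested. The phosphoglycerate mutase gene ipgm-1 was at 178 ± 10.6 and 178 ± 16.7 CPM. The second pyruvate kinase gene, pyk-2, was at 33.5 ± 2.73 and 34.0 ± 2.42 CPM, and pyk-1 took 85.7% to 87.5% of their counts per exonic base over the 6 libraries.

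Of the remaining GAPDH genes, gpd-1 was at 259, 236 and 242 CPM with L4440 and at 194, 241 and 229 CPM with RNAi. RNAi replicate 1 was its lowest library, and the groups overlapped. The gene gpd-4 was at 125, 119 and 119 CPM with L4440 and at 96.6, 117 and 114 CPM with RNAi, where all 3 RNAi libraries lay below the controls. Their log2 fold changes were -0.15 (SE 0.0903) and -0.15 (SE 0.0813), with an edgeR adjusted p = 0.717 for each, and -0.07 for each without RNAi replicate 1.

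Genes of the pathways that join glycolysis gave 0 calls, where 0% of the 13374 genes tested were called. Over the 48 listed genes outside the set, those of the preceding paragraphs included, 46 were matched and 44 tested. A negative log2 fold change was found for 31 of the 44, against 49.4% of all genes, and the median was -0.05. Library totals left 25 of 44 below 0, against 42.7% of all genes. The second deposited table (pseudocount 1) left 18 of 44, against 27.9%. All 5 genes of the pyruvate dehydrogenase complex and its kinase, which govern the entry of pyruvate into the citrate cycle, were below 0 (median -0.07). Of these, pdha-1 was at 362 ± 30.5 CPM in the controls and 334 ± 29.1 CPM after RNAi, pdhb-1 at 159 ± 12.0 and 152 ± 8.73 CPM and the kinase gene pdhk-2 at 98.5 ± 4.31 and 94.3 ± 5.50 CPM. In the pentose phosphate pathway, which branches off at glucose 6-phosphate, 5 of 6 genes were below 0 (median -0.08). Its transaldolase gene tald-1 was at 74.0 ± 6.77 and 67.8 ± 5.58 CPM, rpia-1 at 65.3 ± 5.26 and 59.9 ± 4.96 CPM and T25B9.9 at 249 ± 14.6 and 234.7 ± 16.0 CPM. Among 4 tested gluconeogenesis genes, fbp-1, the fructose bisphosphatase that works against phosphofructokinase, was at 142 ± 13 and 126 ± 9.38 CPM (unadjusted p = 0.0786 and adjusted p = 0.717 in edgeR), and 2 of the 4 were below 0. The phosphoenolpyruvate carboxykinase gene pck-2 was at 574 ± 96.3 and 527 ± 88.4 CPM and the pyruvate carboxylase gene pyc-1 at 365 ± 63.2 and 385 ± 50.4 CPM.

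Glycogen and trehalose genes were split evenly, with 6 of 12 above 0 and a median of 0.00. The glycogen debranching enzyme gene agl-1 was at 81.0 ± 11.1 CPM in the controls and 94.2 ± 12.6 CPM after RNAi. The glycogen phosphorylase gene pygl-1 was at 1383 ± 169 and 1494 ± 95.3 CPM, and the trehalase gene tre-3 at 29.2 ± 2.66 and 27.0 ± 2.76 CPM. Of the 3 glycerol branch genes 2 were below 0, with gpdh-1 at 4.69 ± 0.218 and 4.93 ± 1.41 CPM, gpdh-2 at 178 ± 12.8 and 172 ± 14.1 CPM and gpdh-3 at 175 ± 9.0 and 173 ± 10.2 CPM.

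Of the 44 genes tested in these lists 1 had an unadjusted p under 0.05, against 6.18% of all genes. This gene was swt-3, of the SWEET family of sugar transporters. It was at 9.38, 8.42 and 7.29 CPM in the L4440 libraries and at 12.0, 12.2 and 13.2 CPM in the RNAi libraries. Every RNAi library was above every control, as for 5.53% of all genes. The log2 fold change was 0.58 (SE 0.125, 95% interval 0.29 to 0.86), with an unadjusted p = 0.00129 and an adjusted p = 0.717 in edgeR's quasi-likelihood test, so it did not pass over all genes, and DESeq2 gave an adjusted p = 0.134. It was 0.60 without RNAi replicate 1. The other 5 tested transporter genes were below 0, among them swt-6 at 33.5 ± 7.96 CPM in the controls and 27.3 ± 2.64 CPM after RNAi. Another, hmit-1.3, was at 20.8 ± 0.301 and 19.3 ± 0.336 CPM, with every RNAi library below every control, as for 5.32% of all genes.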

How the data were processed

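RNA from 6 whole-worm samples was sequenced after preparation with a TruSeq v2 kit, without strand marking. The authors deposited raw counts per gene, and the submitters' processing notes name bcl2fastq 1.8.4, STAR 2.4.1d, featureCounts 1.4.6-p4 and WBcel235, with no options. A second deposited table named RPKM was read as a score: the factor between count and value, set as a ratio between L4440 replicates 1 and 2, ran from 0.634 to 1.74 and repeated every 36 genes. It served as an alternative only, where the design had taken it for RPKM.

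Counts were filtered (filterByExpr), scaled by TMM and tested over 13374 genes with edgeR 4.0.16 in R 4.3.3 (glmQLFit, glmQLFTest, 2-sided, Benjamini-Hochberg, threshold 0.05), with limma 3.58.1 (voom) and DESeq2 1.42.0 as alternatives, beside other scalings and filters, a length correction, and each library left out in turn. On simulated counts the test recovered 51%, 73% and 95% of 200 genes changed 1.5, 2 and 4 times, among 13231, 13232 and 13210 tested. It made 4, 11 and 13 false calls. The simulated spread was set by mean level alone, with no library apart and no shared deviation of consecutive numbers. These rates need not hold for the real libraries, where 0 of 13374 genes passed. The SE is the log2 fold change divided by the square root of F. Lengths are unions of exons in Ensembl release 115, and the matched names come from the supplied gene name table. Of the listed genes rpe-1 and fgt-1 were not matched. Chi-square per gene was 17.1 to 28.5 between libraries of a group and 6.59 to 47.9 across groups. It was lowest for L4440 and RNAi replicates 2 and highest for L4440 and RNAi replicates 1. Every pair thus differed by more than the value of about 1 that sampling noise gives.

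Consecutive library numbers (13 and 14, 17 and 18, 21 and 22) deviated together, with correlations of 0.216, 0.418 and 0.285. The other pairs across groups ran from -0.382 to 0.101. Deviations within a group sum to 0, so these correlations are not independent of each other. The pairing of consecutive numbers comes from the number order and the data, since the labels state none. It entered as a replicate block in an alternative fit.

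The named genes are the 10 members, T25B9.1, the other glycolysis genes and up to 3 genes per remaining list with the smallest p. Members, lists and alternatives were chosen with earlier results of these data known.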

Additional observations from a re-analysis of the deposited data

How the results depend on the processing

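The count of 0 members called was the same under every alternative run. The calls over all genes were 1 with RLE factors, 1 in the length correction, 14 with DESeq2, 139 without a filter, and 83 and 58 on the deposited score table with pseudocounts 1 and 0.1, and ran from 0 to 1 with 1 library left out (1 without RNAi replicate 1). With the replicate block of consecutive library numbers 0 genes were called, and the median of the members was -0.06 (smallest unadjusted p = 0.0772, pgk-1). That block changed no call. The members' median was 0.016 and 0.015 on the score table, against 0.111 and 0.130 over all genes there. With 1 library left out the members' median ran from -0.129 (RNAi replicate 2) to -0.025 (L4440 replicate 1).

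T25B9.1 passed with RLE (-1.83, adjusted p = 0.0346), DESeq2 (-1.84, adjusted p = 1.28e-11), no filter (-1.85), the length correction (-1.82) and the score table (-1.17 and -1.64). Its value ran from -1.93 to -1.74 with 1 library left out.

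Small log2 fold changes turned sign. On the score table, with pseudocounts 1 and 0.1, they were 0.194 and 0.195 for gpi-1, 0.0041 and 0.0040 for aldo-2, 0.216 and 0.219 for gpd-2, 0.021 and 0.021 for enol-1, 0.085 and 0.085 for pyk-1, 0.250 and 0.255 for ldh-1, 0.018 and 0.018 for hxk-1, 0.029 and 0.030 for hxk-2, 0.293 and 0.30 for hxk-3, 0.127 and 0.127 for gpd-1, 0.259 and 0.262 for ipgm-1 and -0.066 and -0.070 for pyk-2. Upper quartile factors and library totals gave 0.0061 and 0.0058 for pyk-1, 0.012 and 0.0096 for ldh-1, 0.011 and 0.011 for hxk-3 and 0.022 and 0.021 for ipgm-1. The stricter filter gave 0.0012 for ldh-1, 0.00063 for hxk-3 and 0.012 for ipgm-1. The length correction gave 0.013 for ldh-1 and -0.025 for pfk-1.1. It also moved pyk-1 from -0.019 to -0.134 without a turn of sign (edgeR adjusted p = 0.782). With 1 library left out the range was -0.155 to 0.208 for aldo-1, -0.121 to 0.024 for pyk-1, -0.058 to 0.047 for ldh-1, -0.065 to 0.028 for hxk-3, -0.094 to 0.059 for ipgm-1 and -0.045 to 0.079 for pyk-2. The cause was not tested.

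The aldo-2 share ran from 95.4% to 96.1% with 1 library left out, and its log2 ratio difference from -0.460 to 0.067. On the score table that difference was -0.0039 (exact permutation p = 1). The gpd-2 share was 43.7% on the score table and 45.8% to 46.2% with 1 library left out, and its log2 ratio difference 0.284 on the score table and from -0.036 to 0.013. On the score table the log2 ratio difference was -0.012 for the GAPDH pairs, 0.184 for gpd-1 to gpd-4 and 0.155 for pyk-1 to pyk-2, and with 1 library left out -0.051 to 0.208, -0.023 to 0.014 and -0.089 to 0.028. The pyk-1 share was 93.9% in raw counts. Shares over bases unique to each paralogue were not run, since no genome sequence was used here.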
